A study of Mus musculus with 8 samples.

Results

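The GIMAP genes encode a family of GTP-binding proteins found mainly in lymphocytes, and 8 of the 24453 genes in the deposited table belong to it. The members were taken by symbol as Gimap1, Gimap3, Gimap4, Gimap5, Gimap6, Gimap7, Gimap8 and Gimap9. No other gene in the table has a symbol that begins with Gimap, and all 8 entered the tests. Their messenger RNA was measured in 8 libraries of sorted mouse regulatory T cells (Treg cells), 2 from the line T138, 3 from T143 and 3 from wild type (WT). T138 and T143 were made by somatic cell nuclear transfer, in which a mouse is raised from 1 donor T cell nucleus, so each line goes back to a single founding cell. The series text calls T138 Treg cells naturally occurring and those of T143 agonist-induced, and the comparison asks whether they are distinct subsets. Every library, WT included, has the strain label NOD-Foxp3GFP-Rag1-/-, no treatment, and a sort for CD4 and Foxp3. Ages are not stated in the labels, and whether the Rag1 label holds for WT is not known, so Rag1 genotype and line may be inseparable in comparisons with WT.

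GIMAP proteins carry a GTPase domain related to that of the septins, and several of them sit on membranes inside the cell. They are best known for keeping resting T cells alive: mice and rats without a working Gimap5 lose most peripheral T cells, and Gimap1 is needed for mature lymphocytes to persist. Members have been described to bind BCL2 family proteins, and Gimap6 binds the autophagy protein Gabarapl2.

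Recovered depth was 7.83 to 22.64 M reads per library, and each member had 383 to 25103 reads in each library. Source names disagree with titles for T143 replicate 1 (a T138 mouse is named) and WT replicate 1 (a T143 mouse), and the titles were followed. The sorted fractions also differed in other transcripts. In T143 all 8 Treg markers examined were lower than in T138 (limma, adjusted p under 0.05), with Foxp3 at 3920, 6299 and 8694 (T143), 41850 and 41160 (T138), and 29770, 36360 and 35360 (WT). The 10 neutrophil genes summed to 0.592 to 3.62% of the library in T143, 0.0272 to 0.154% in T138 and at most 0.00495% in WT, where 3 to 8 of the 10 were at 0 in each library, and 8 of 10 were higher in T143 than in T138. The 8 dendritic cell genes took 0.202 to 0.276% in T138, 0.017 to 0.0728% in T143 and at most 0.0038% in WT. Xist, a transcript of female cells, was at 19140 to 24990 in T143 and at most 129.9 in the other libraries. Sex and line therefore cannot be told apart in comparisons with T143. In the libraries with conflicting names, Xist was at 19140 (T143 replicate 1) and 35.13 (WT replicate 1). The Y chromosome gene Ddx3y was at 0 and 2923 there, at 3634 and 3175 in T138 and at most 1.27 in T143. Both libraries thus had the sex of their title group and not that of the line in the source name. In these bulk samples, fewer cells of a type and less RNA per cell cannot be told apart.

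The family lies in 1 cluster of 123.7 kb on chromosome 6 (GRCm38, 48647186 to 48770851), in the order Gimap8, Gimap9, Gimap4, Gimap6, Gimap7, Gimap1, Gimap5, Gimap3. Gimap6 and Gimap3 lie on the minus strand and the other members on the plus strand. The 250 bases before the start site of the RefSeq promoter table are shown for 5 members: for Gimap3, Gimap5 and Gimap8, which fell together in T143, for Gimap7, which differed in T138, and for Gimap4, which passed no test. They run 5′ to 3′ on the gene's strand (GRCm38.p6), and capitals mark a motif match. For Gimap8 the start site of the promoter table lies inside the gene span given above, so the last bases shown fall within that span.
Gimap3 (chr6:48770852-48771101, minus strand): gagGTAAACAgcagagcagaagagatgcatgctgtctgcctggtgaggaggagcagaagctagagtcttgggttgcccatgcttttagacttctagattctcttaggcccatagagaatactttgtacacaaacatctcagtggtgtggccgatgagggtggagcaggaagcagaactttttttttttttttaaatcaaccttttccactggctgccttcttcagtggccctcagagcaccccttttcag
Gimap5 (chr6:48745947-48746196, plus strand): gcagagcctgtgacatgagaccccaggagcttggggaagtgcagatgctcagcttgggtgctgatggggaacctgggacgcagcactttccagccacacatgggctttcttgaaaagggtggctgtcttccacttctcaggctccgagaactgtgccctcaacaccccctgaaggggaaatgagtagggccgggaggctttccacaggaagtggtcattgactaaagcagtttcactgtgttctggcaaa
Gimap8 (chr6:48646984-48647233, plus strand): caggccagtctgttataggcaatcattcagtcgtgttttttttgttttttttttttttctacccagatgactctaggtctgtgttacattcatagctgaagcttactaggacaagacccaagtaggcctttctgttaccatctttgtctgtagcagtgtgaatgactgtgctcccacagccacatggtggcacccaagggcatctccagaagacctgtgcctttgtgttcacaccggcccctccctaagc
Gimap7 (chr6:48718371-48718620, plus strand): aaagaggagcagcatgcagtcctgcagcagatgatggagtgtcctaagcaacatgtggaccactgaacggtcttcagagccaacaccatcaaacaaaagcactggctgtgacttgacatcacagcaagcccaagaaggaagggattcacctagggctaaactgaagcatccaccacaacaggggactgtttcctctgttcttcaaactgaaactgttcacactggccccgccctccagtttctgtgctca
Gimap4 (chr6:48684328-48684577, plus strand): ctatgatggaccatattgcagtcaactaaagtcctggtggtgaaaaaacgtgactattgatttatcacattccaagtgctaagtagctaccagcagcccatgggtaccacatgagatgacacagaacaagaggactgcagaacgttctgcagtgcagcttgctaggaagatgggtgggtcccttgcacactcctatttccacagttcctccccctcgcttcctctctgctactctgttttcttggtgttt
Promoter windows in the RefSeq table run from 250 bases before to 50 after a start site. In the 9 windows of the 8 genes (Gimap8 has a second start, not shown) 7 motifs were searched on both strands. The forkhead motif GTAAACA occurs in the Gimap3 window alone, and in 3.65% of all 32851 windows. The TCF/LEF motif CTTTGAA occurs in the Gimap7 window, 42 to 48 bases after the start and so outside the stretch shown, and in 5.14% of all windows. The RUNX motif TGTGGTT (5.27% of windows), the KLF motif CCNCACCC (16.6%), the ETS motif CCGGAAGT (3.89%), an NF-kB motif (0.411%) and the CRE motif TGACGTCA (1.79%) are absent from the 9 windows as spelled. A match is a description of these letters, and binding was not measured.

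Levels per transcript length placed most of the family among the most abundant transcripts of these cells. On the scale of normalised read count per kilobase, Gimap3 was the highest member in T138 (9625 ± 401, SD, n = 2) and WT (7876 ± 236.6, n = 3), and ranked below 2 other members in T143 (4025 ± 421.8, n = 3). Gimap6 and Gimap4 followed in T138 and WT, with means of 6195 ± 272.2 and 5560 ± 132.5 (T138) and of 5440 ± 973.9 and 5178 ± 226.7 (WT). The WT libraries overlapped between Gimap6 and Gimap4. In T143 Gimap4 (6327 ± 1823) and Gimap6 (5781 ± 1695) stood above Gimap3, and again overlapped each other. By its mean Gimap8 was the fourth member in every group, at 3854 ± 32.06 (T138), 2276 ± 268 (T143) and 4333 ± 784 (WT), although in WT replicate 2 it exceeded Gimap4 and Gimap6. Gimap9, Gimap1 and Gimap7 lay between 788 and 3039 per kilobase in single libraries and overlapped one another in T143, while in WT Gimap7 was below Gimap9 and Gimap1. Gimap5 was the lowest in every library, at 312.4 to 613.9 per kilobase. Gimap3, Gimap4 and Gimap6 each exceeded at least 98.9% of tested genes with a known length in every library, and Gimap5 exceeded 71.5 to 85.6%.

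**Figure D1:**
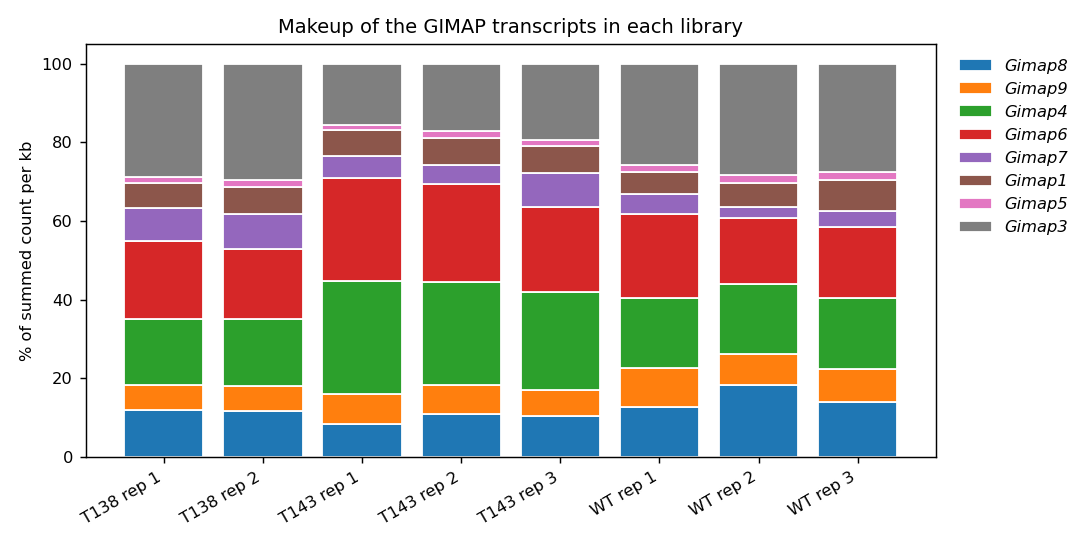
Each bar is 1 library and each colour the percent of the summed GIMAP count per kilobase that a member took. Gimap3 took 28.9 and 29.5% (T138), 15.6 to 19.4% (T143) and 25.8 to 28.4% (WT), while Gimap4 took 24.9 to 28.8% in T143 and 16.8 to 18.1% elsewhere.

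The first question was how the 2 nuclear-transfer lines differ. Gimap3, Gimap5, Gimap7 and Gimap8 were lower in T143 than in T138, and no member was higher. Differences were tested with limma on log2(value + 1) over 15547 genes, with Benjamini-Hochberg adjustment over all of them and a threshold of 0.05. Of all tested genes 10.2% were called lower and 10.8% higher, against 4 and 0 of the 8 members. The median log2 change of the members was -0.51, beside 0.15 over all tested genes. A total of 7 members had a change below 0, and for 5 of the 8 every T143 library lay below both T138 libraries, a pattern seen for 23.7% of tested genes. T143 was then compared with WT, where Gimap3, Gimap5 and Gimap8 were lower and no member was higher. The background there was 12.1% of genes called lower and 11.7% higher, and the members' median was -0.40 beside 0.05. In T138 against WT 1 member, Gimap7, was higher and none lower, at a background of 5.74% higher and 5.30% lower and medians of 0.15 and -0.06. These comparisons share groups, so their values are set side by side and are not independent.

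**Figure D2:**
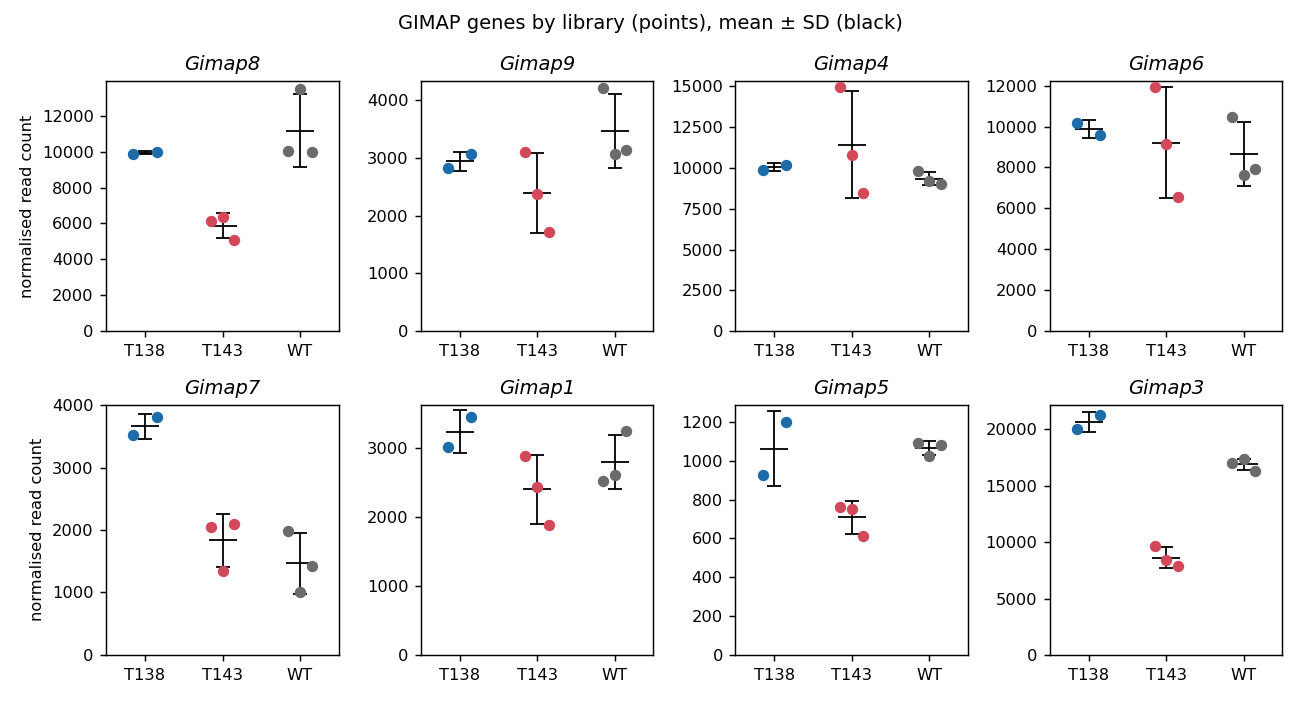
Normalised read count of each member in each library (points; axes start at 0), with mean ± SD of T138 (n = 2), T143 (n = 3) and WT (n = 3), in chromosome order. For Gimap3, Gimap5 and Gimap8 the T143 points lie below all others, and for Gimap7 the T138 points lie above all others.

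Gimap3, the closest relative of Gimap5 and described on membranes of the endoplasmic reticulum, had the largest change of any member for T143 against T138, and against WT its change lay within the error of that of Gimap8. Its normalised read count was 20040 and 21250 (T138), 9632, 8398 and 7869 (T143), and 16980, 17350 and 16350 (WT). Every T143 library lay below every other, and both T138 libraries lay above WT. The log2 change was -1.26 ± 0.14 (SE) for T143 against T138 (limma, adjusted p = 0.00031) and -0.97 ± 0.12 against WT (adjusted p = 0.00052). T138 against WT gave 0.29 ± 0.14, which did not pass (adjusted p = 0.227). The means put T143 at 0.42 of T138 and 0.51 of WT. Both calls for T143 held under all 21 alternatives, with adjusted p of at most 0.00994 and 0.0379.

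Gimap8, an unusually long member with several GTPase domains, was at 9881 and 9998 (T138), 6143, 6383 and 5084 (T143), and 10050, 13510 and 9964 (WT). The T143 libraries were again the lowest, and WT replicate 2 was the highest of all. The log2 change was -0.77 ± 0.17 against T138 (limma, adjusted p = 0.011) and -0.92 ± 0.15 against WT (adjusted p = 0.00208). T138 and WT did not differ beyond their spread (-0.15 ± 0.17, adjusted p = 0.64). The call against T138 was lost without T138 replicate 1 (adjusted p = 0.0636) or replicate 2 (0.0835). Centring each library on pan T cell genes, which shifts all genes alike, ended it too (-1.0, adjusted p = 0.0529) and gave -0.77 against WT (0.0847).

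Gimap5, the lysosomal member whose loss causes T cell lymphopenia, was at 924.2 and 1199 (T138), 762.2, 752.1 and 610.2 (T143), and 1093, 1025 and 1083 (WT). T143 was below the others, and T138 spanned the WT values. The log2 change was -0.58 ± 0.18 against T138 (limma, adjusted p = 0.0439) and -0.60 ± 0.16 against WT (adjusted p = 0.0219), with -0.02 ± 0.18 for T138 against WT (adjusted p = 0.982). The first call was close to the threshold and held under 8 of 21 alternatives. It was lost with centring on pan T cell genes (-0.81, adjusted p = 0.094) or on the median (-0.67, 0.0508), with no filter (0.0511), with only the 2 groups fitted (0.0725), and without T138 replicate 2 (0.278), T143 replicate 1 (0.0547), 2 (0.0824) or 3 (0.102), or WT replicate 1 (0.0531) or 3 (0.068). The call against WT was lost without T143 replicate 3 (0.0681), WT replicate 1 (0.0533) or 3 (0.066), and with centring on pan T cell genes (-0.45, 0.297). Without T143 replicate 1 and WT replicate 1 together, whose names conflict, both calls were lost (limma, adjusted p = 0.0709 against T138 and 0.0706 against WT). Gimap5 and Gimap3 transcripts share 190 windows of 50 bases, 9.98% of the windows of Gimap5 and 9.06% of those of Gimap3, and no other pair of members shares any. How such reads were counted is not stated in the labels, and Gimap3 had the far higher count, so the value of Gimap5 is uncertain to that extent.

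Gimap7, which can stimulate GTP hydrolysis by pairing with other GIMAP proteins, followed another pattern. It was at 3520 and 3804 (T138), 2046, 1352 and 2100 (T143), and 1979, 1000 and 1418 (WT). Both T138 libraries were above all others, while T143 and WT overlapped. The log2 change was 1.37 ± 0.27 for T138 against WT (limma, adjusted p = 0.00985) and -1.03 ± 0.27 for T143 against T138 (adjusted p = 0.0236). T143 against WT gave 0.35 ± 0.24 (adjusted p = 0.336). The call against WT was lost without T138 replicate 1 (0.0581) or 2 (0.085). That for T143 against T138 was lost without T138 replicate 1 (0.088) or 2 (0.14) or T143 replicate 2 (0.0727). Dendritic cell genes were also highest in the T138 libraries, with 7 of 8 called higher than in WT. In T143 7 of 8 were called higher than in WT too, and in T143 against T138 4 of 8 were called lower and 0 higher. The part of dendritic cells in the Gimap7 value was not tested.

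**Figure D3:**
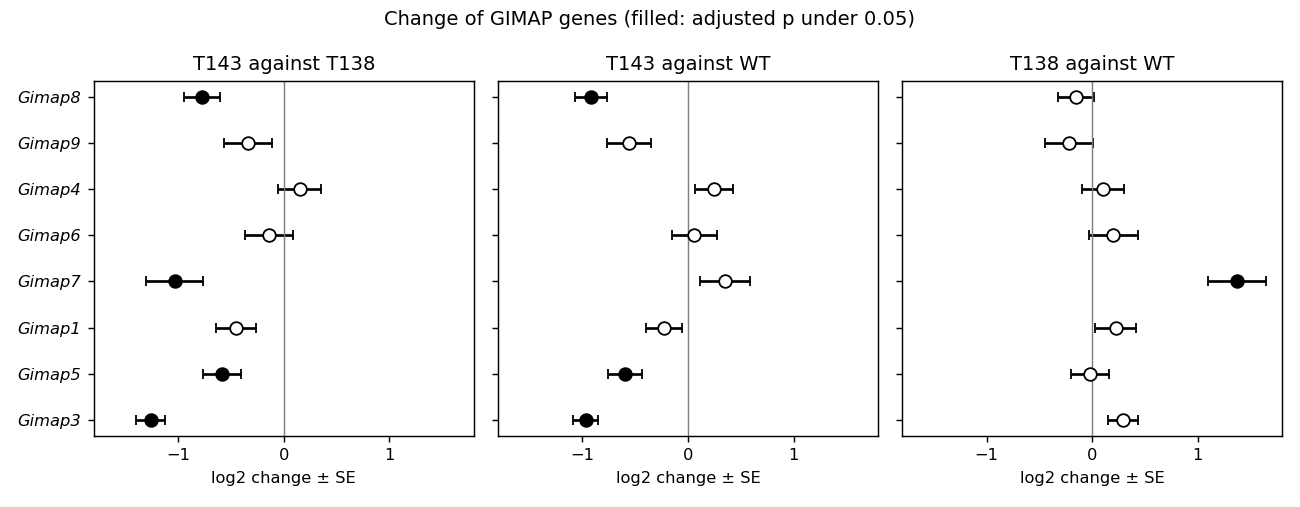
Log2 change ± SE of each member in the 3 comparisons, in chromosome order from top to bottom, with filled points for adjusted p under 0.05. Gimap3, Gimap5 and Gimap8 are filled below 0 in both comparisons of T143, Gimap7 is filled in both comparisons of T138, and the other 4 members are open throughout.

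The other 4 members passed in no comparison. Gimap4, a member linked to the timing of T cell death, was at 9861 and 10200 (T138), 14970, 10790 and 8480 (T143), and 9800, 9208 and 9016 (WT). The T143 libraries spanned all the others, and the change against T138 was 0.15 ± 0.20 (limma, adjusted p = 0.641), with its sign turning under some alternatives. Gimap6, the partner of Gabarapl2, was at 10180 and 9568 (T138), 11950, 9142 and 6550 (T143), and 10460, 7641 and 7915 (WT). Its T143 values also spanned the rest (-0.14 ± 0.23, adjusted p = 0.697), and its sign turned under some alternatives too. Gimap1 was at 3018 and 3452 (T138), 2878, 2427 and 1885 (T143), and 2526, 2604 and 3238 (WT). T143 lay below T138 without overlap, yet the change of -0.45 ± 0.19 did not pass (adjusted p = 0.123). Gimap9, whose individual role is little known, was at 2829 and 3062 (T138), 3103, 2367 and 1713 (T143), and 4206, 3060 and 3141 (WT). Its change against WT, -0.56 ± 0.21, did not pass (adjusted p = 0.0775) but did without T143 replicate 1 (-0.77, adjusted p = 0.0218). Gimap1 overlaps an antisense gene of the annotation, Gimap1os, and a longer gene model on the same strand, Gm28053, spans Gimap1 and Gimap7 and overlaps part of Gimap5. Neither has a value here, and without a stated counting of strand, reads of these overlaps cannot be assigned with certainty.

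The ratio of Gimap3 to Gimap4 within a library, chosen after the values were seen, does not depend on the scaling of libraries. It was 2.03 and 2.08 (T138), 0.644, 0.778 and 0.928 (T143), and 1.73, 1.88 and 1.81 (WT). T143 was below all other libraries. The difference in log2 ratio was -1.41 against T138 and -1.22 against WT. Exact two-sided permutation tests, with p taken as 2 times the smaller tail, gave p = 0.2 and p = 0.1. Taken that way, these are the smallest possible for 2 against 3 and 3 against 3 libraries (Benjamini-Hochberg adjusted 0.247 each over 21 such ratios). The ratio of Gimap8 to Gimap4 was 1.00 and 0.98 (T138), 0.411, 0.592 and 0.600 (T143), and 1.03, 1.47 and 1.10 (WT), with T143 again lowest. T143 was also below every other library for the ratios of Gimap1, Gimap5 and Gimap9 to Gimap4, so the order is shared by 5 of the 7 ratios over this denominator. Gimap4 was the only member with a positive change for T143 against T138 (0.15). Its values in T143 replicates 1 and 2 (14970 and 10790) exceeded every T138 and WT library, which lowers all 7 ratios there. The share of all tested genes with this order over Gimap4 was not counted.

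The summed family signal was set beside general T cell transcripts. The members' share of the library was 0.387 and 0.401% (T138), 0.330, 0.267 and 0.220% (T143), and 0.366, 0.355 and 0.334% (WT). Per unit of the 14 summed pan T cell genes the family was at 0.645 and 0.647 (T138), 0.362, 0.403 and 0.430 (T143), and 0.423, 0.519 and 0.391 (WT). On that scale T143 overlapped WT, and T138 was above both. Of the pan T cell genes 3 were higher and 0 lower in T143 than in T138, and against WT 4 were lower and 0 higher in T138. Within T143, replicate 3 had the most neutrophil signal and the lowest value of 7 members, all but Gimap7, and replicate 1 had the least neutrophil signal and the highest value of 6, all but Gimap8 and Gimap7. This order is not particular to the family, as the pan T cell sum was 142100, 103400 and 79790 in replicates 1, 2 and 3. The share of all tested genes with this order was not counted. The part of other cells in the T143 values was not tested. Without T138 replicate 1 and T143 replicate 3 together (the libraries highest for neutrophil genes in each line), Gimap3 alone passed against T138, and Gimap3 and Gimap8 against WT. The changes against T138 stayed near their size with all libraries, at -1.24 for Gimap3, -0.67 for Gimap8, -0.66 for Gimap5 and -1.19 for Gimap7. The libraries kept still differed in neutrophil genes, at 0.592 and 1.0% (T143 replicates 1 and 2) and 0.0272% (T138 replicate 2). Leaving out this pair therefore cannot decide the part of neutrophils. Macrophage genes took 0.0673 to 0.276% of the library in T143, 0.0204 and 0.0335% in T138 and at most 0.00294% in WT, and replicate 3 was again the highest in T143. Against WT, 7 of these 8 were called higher in T143 and 5 in T138, and 2 were called higher in T143 than in T138. The 6 erythroid genes took 0.0128 to 0.0736% in T143, 0.00513 and 0.0108% in T138 and at most 0.0026% in WT, with 6 called higher in T143 and 1 in T138 against WT, and 2 in T143 against T138. Of 6 natural killer genes, 3 were called higher in each line against WT and 1 lower in T138. Endothelial cells also express GIMAP genes. Of 10 endothelial markers 1 was higher in T143 than in T138, 2 higher in T143 than in WT and 1 higher in T138 than in WT, and their sum, 3160 to 5019, was mostly Pecam1 (2911 to 4918), which T cells express too. The markers Cdh5, Kdr and Tie1 were at or below 65.94 in every library, and Cldn5 at or below 1.38. In T138 replicate 2, 6 of the 10 were at 0, while Egfl7 was at 38.1 and Esam at 33.87. Means of Esam were 37.61 (T138), 12.04 (T143) and 3.967 (WT), and it passed in no comparison. Tie1 rose in T143, from 0 in every other library to 17.91, 15.27 and 42.08. Vwf was at 73.82 and 136.3 (T138), 25.87, 128.5 and 132.4 (T143) and at most 4.13 (WT), and rose against WT in T138 (5.31, limma, adjusted p = 0.00747) and T143 (4.92, adjusted p = 0.00336).

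**Figure D4:**
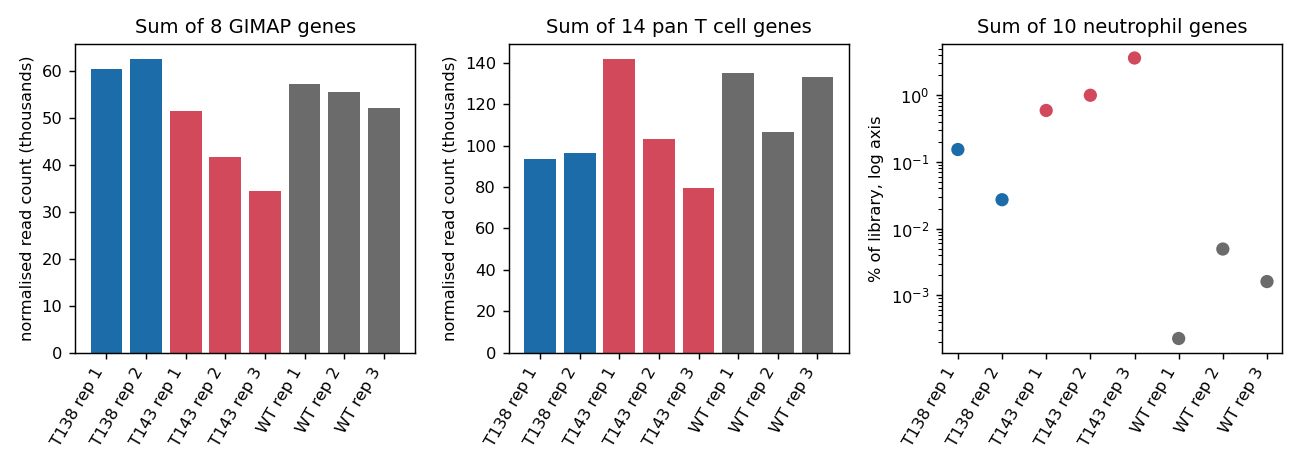
Summed normalised read count of the 8 GIMAP genes (left) and of 14 pan T cell genes (middle), and percent of the library in 10 neutrophil genes (right, log axis), 1 bar or point per library. The 3 T143 libraries have the lowest GIMAP sums, 34290 to 51480, and the most neutrophil signal, 0.592 to 3.62%.

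Members differed in how alike their patterns were across the 8 libraries. The 28 pairwise Pearson correlations of log2 values ran from -0.309 to 0.913 with a median of 0.37, and 4 were below 0. They describe 3 groups of libraries from 1 table and carry no test. Gimap3 and Gimap5, neighbours at one end of the cluster, were the most alike (0.913). They are also the only pair whose transcripts share windows of 50 bases, and the part of shared reads in this likeness was not tested. Gimap8, at the far end, was most like Gimap3 (0.899). Gimap4 and Gimap6 were most like each other (0.802), and Gimap4 was the least like Gimap8 (-0.309). Gimap7 had no close match, its highest being 0.398 with Gimap6. Nearness on the chromosome and likeness therefore did not run together for Gimap8 and Gimap3.

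**Figure D5:**
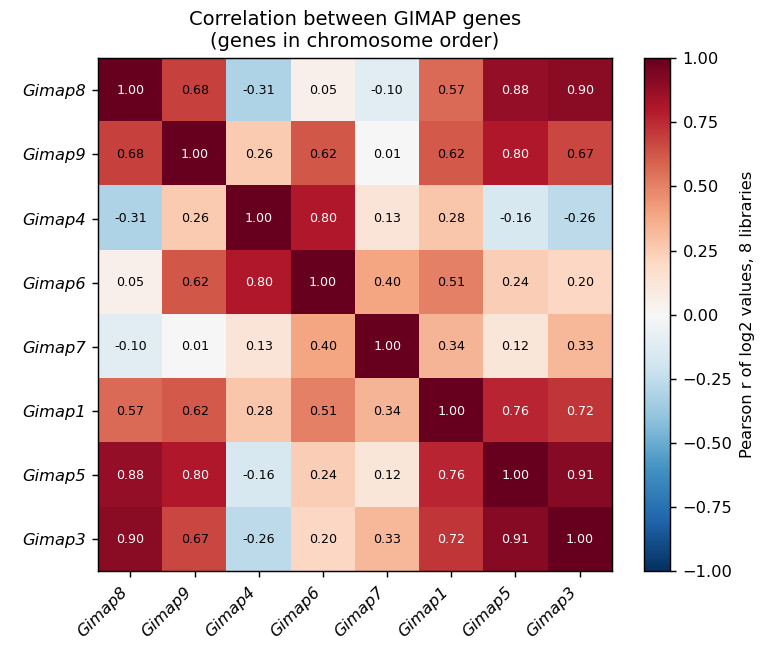
Pearson correlation of log2 values over 8 libraries for each pair of members, both axes in chromosome order, with red for positive and blue for negative values. Gimap8, Gimap5 and Gimap3, from opposite ends of the axes, correlate with one another at 0.88 to 0.91. Gimap4 and Gimap6 pair at 0.80, and Gimap7 stays at or below 0.40 with every other member.

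Among 7602 other genes above the median level, those most like the mean standardised profile of the members were Wrnip1 (r = 0.973), H2-M3 (0.971), Pym1 (0.963), Gosr1 (0.96) and Irf1 (0.958), over 8 libraries. Irf1, a transcription factor of the interferon response, was at 10120 and 9960 (T138), 7254, 5549 and 4396 (T143), and 7913, 6758 and 7344 (WT). T138 was the highest group for it, and T143 replicate 3 the lowest library. For Gimap3 alone, a view added after the data were seen, the MHC class Ib genes H2-Q7 (0.994) and H2-Q9 (0.993) were the most alike, with near-identical values that 2 highly similar genes can share. For Gimap7 alone Klf10 (0.953), Spryd3 (0.952) and Junb (0.951) were, with Junb, a subunit of AP-1, at 24860 and 21300 (T138), 7660, 6536 and 6871 (T143), and 10300, 3553 and 6300 (WT).

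Genes linked to GIMAP proteins did not move as a group. Of 18 such genes, 2 were higher and 2 lower in T143 than in T138 (median log2 change 0.18, beside 0.15 over all genes). Bcl2, the anti-apoptotic protein described to bind Gimap3 and Gimap5, was at 1511 and 1453 (T138), 5433, 4252 and 3892 (T143), and 6410, 7618 and 5917 (WT). T138 was the lowest group by far, and T143 lay between it and WT. Bcl2 rose by 1.60 ± 0.17 in T143 against T138 (limma, adjusted p = 0.000315) and changed by -2.16 ± 0.17 in T138 against WT (9.01e-05). Bcl2l1, which encodes the related survival protein BCL-XL, fell in T143, by 1.15 on the log2 scale against T138 (SE 0.20, adjusted p = 0.00318). The pro-apoptotic gene Bcl2l11 rose there (0.70 ± 0.17, adjusted p = 0.0166). Il7r, the receptor for the survival cytokine interleukin-7, was at 18650 and 19780 (T138), 3970, 4328 and 5244 (T143), and 2693, 3280 and 2771 (WT), and fell by 2.10 in T143 against T138 (SE 0.16, adjusted p = 4.1e-05).

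Between T138 and WT, 1 linked gene was higher (Il7r) and 1 lower (Bcl2) of the 18, with a median of 0.15 beside -0.06. In T143 against WT, Il7r was higher (0.63 ± 0.14, limma, adjusted p = 0.0101), and Bcl2 (-0.56 ± 0.16, 0.0246), Bcl2l1 (-0.96 ± 0.18, 0.00373) and Foxo1 (-0.62 ± 0.16, 0.0165) were lower. Foxo1 is a transcription factor of T cell quiescence. Gabarapl2, the partner of Gimap6, was at 151.6 and 226.9 (T138), 165.2, 171.8 and 123.8 (T143), and 82.65, 6.39 and 61.56 (WT), and passed in no comparison (limma, adjusted p = 0.834 between the lines, 0.103 for T138 and 0.0663 for T143 against WT).

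Genes beside the cluster were also examined, 5 on each side by start position, of which 7 were tested. Repin1, Zfp775 and AI854703, on the Gimap8 side, were at 52.49 to 209.1 in every library and passed in no comparison. On the Gimap3 side the nearest gene was Tmem176b, 63.0 kb away, at 909.4 and 676.5 (T138), 61.69, 282.5 and 522.3 (T143), and 52.35, 29.82 and 50.16 (WT). It rose in T138 (4.16 ± 0.72, limma, adjusted p = 0.00495) and in T143 (2.26 ± 0.64, adjusted p = 0.0279) against WT, as did the overlapping Tmem176a (4.50 ± 0.90 and 2.96 ± 0.81, adjusted p = 0.0103 and 0.0228). T143 against T138 called 0 of the 7. Both genes are also expressed in dendritic cells, whose markers were higher in these libraries, and the part of those cells was not tested.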

How the data were processed

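Per the values themselves, the authors scaled each library's gene read counts by 1 factor, so that the deposited signal sums to 15.59 M in every library and steps in whole multiples. Tools named in the submitters' processing notes, with no role or order, are HOMER 4.8, STAR 2.5.2b, CASAVA 1.8.2 and edgeR, with build mm10. Division by the step gave whole numbers (within 0.01 units) for 100% of values. On these reads edgeR called 2718 genes (T143 against T138), 1278 (T138 against WT) and 3263 (T143 against WT). Floors of 3 reads, 2.07 to 5.97 deposited units, cover counting error only.

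Group and replicate come from the titles. The labels give each library its own identifier but do not state that these are separate mice, so p-values reflect only library-to-library spread, part of which may be technical. limma 3.58.1 in R 4.3.3 (empirical Bayes, trend, robust) was fitted on log2(value + 1), which understates changes of low genes, over all 8 libraries with 3 group means and no covariate. Genes needed a value of 1 or more in 2 or more libraries. edgeR 4.0.16, DESeq2 1.42.0, limma-voom, other scalings and filters, and fits without libraries were alternatives.

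Named genes are the 8 members, the 4 linked genes with the smallest p per comparison plus Gabarapl2 (chosen after its values were seen), the flanking genes and the 5 most alike. The members and lists were chosen with earlier results of these data known. Transcript lengths came from GENCODE M21 for 23878 genes and positions from RefSeq for 24361, both GRCm38. B cell, natural killer and CD8 lists were measured too: they took at most 0.00383, 0.00687 and 0.00203% of any library.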

Additional observations from a re-analysis of the deposited data

How the results depend on the processing

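Over 21 alternatives, no call of a member changed direction. The sign of a change that did not pass turned in 19 cases, for Gimap4, Gimap5, Gimap6, Gimap8 and Gimap9. For T143 against T138 the number of members called lower fell from 4 to 2 with libraries centred on pan T cell genes and to 1 without T138 replicate 1 and T143 replicate 3 together, a choice added after seeing the data. The members' median change was -0.51, and -0.75 and -0.52 under these 2 settings. Pan T centring shifts all genes alike, and the median over all tested genes went from 0.152 to -0.079 with it. Its -0.75 therefore does not show larger changes of the members. Without the pair of libraries the change of Gimap8 went from -0.77 to -0.67 and that of Gimap5 from -0.58 to -0.66. The count ran from 1 to 4 when single libraries were left out, with 1 without T138 replicate 2 and 2 without T138 replicate 1 or T143 replicate 2. For T138 against WT the number called higher was 0 to 1 over the libraries left out, with 0 without either T138 library, and 0 without T138 replicate 1 and T143 replicate 3 together. For T143 against WT the number called lower was 1 with pan T centring, which kept Gimap3, and 2 to 4 over the libraries left out. A T138 library left alone was assumed to vary like the other groups. The cause of these changes was not tested.

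The replicate numbers were also used as a block, giving 3 members lower for T143 against T138 (without Gimap5, adjusted p = 0.0854), 1 higher for T138 against WT and 4 lower for T143 against WT (with Gimap9, adjusted p = 0.0295). All genes called moved from 3272 to 3109, from 1716 to 1804 and from 3698 to 3940 with the block. Same-numbered libraries had deviations correlated at -0.062 to 0.055, which does not decide whether they were paired. Between T143 and WT alone each library correlated best with its own number. With 2 libraries in T138, their deviations mirror each other, so their correlations with any other library differ only in sign. T143 replicate 1 correlated best with T138 replicate 2 (0.062), and T143 replicate 3 has no T138 library of its number.

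Calls over all genes for T143 against T138 were 3272, and 1461 with pan T centring, 2050 and 1345 without T138 replicate 1 or 2, 2025 without T143 replicate 2 and 1737 without T138 replicate 1 and T143 replicate 3. For T138 against WT they were 1716, and 1000 with pan T centring, 998 and 757 without T138 replicate 1 or 2, 1103 without WT replicate 3 and 989 without that pair. For T143 against WT they were 3698, and 1654 with pan T centring and 2460 without T143 replicate 2. Pan T centring changed the split of higher and lower calls from 1681 and 1591 to 482 and 979, from 892 and 824 to 790 and 210, and from 1818 and 1880 to 1189 and 465. Its medians over all tested genes went from 0.152 to -0.079, from -0.065 to 0.318 and from 0.053 to 0.204, and after quantile normalization the first was 0.014 and the last -0.078.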
